A study of Mus musculus with 8 samples.

Results

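The genes described here encode the enzymes that build cholesterol from acetyl-CoA, the proteins that switch these enzymes on and off, and the core enzymes of fatty acid synthesis. The list held 29 genes. A probe was kept where its current gene symbol was on that list. Older synonyms, such as Sc4mol for Msmo1, were allowed for, but no probe was named through one. Each gene was read from the probe that varied most over the 8 arrays. This gave values for 26 of the 29 genes, drawn from 42 probes, among 31443 features in the whole table (21946 named genes plus unnamed probes). Acat2, Hmgcs1 and Fdft1 were not analysed here. The list was set by gene name, but it was chosen with earlier results of these data known.

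Cholesterol synthesis starts with the mevalonate arm, which joins acetyl units and activates them as isoprenoid diphosphates. Squalene is then made, closed into lanosterol and trimmed step by step to cholesterol. When sterols in the endoplasmic reticulum run low, the escort protein Scap carries the transcription factors encoded by Srebf1 and Srebf2 to the Golgi, where they are cut free to enter the nucleus and switch on these enzymes, while the Insig proteins hold Scap back when sterols are plentiful. Fatty acid synthesis draws on the same pool of acetyl-CoA, supplied from citrate, and is switched on by the same family of factors.

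Total RNA came from mouse myoblasts, the proliferating precursors of skeletal muscle fibres, and was hybridised to 8 Illumina WG-6 v2.0 bead arrays. There were 2 siG9a samples and 2 scrambled control samples at day 1, and 2 siG9a samples and 2 scrambled control samples at day 0, deposited as biological duplicates. siG9a targets Ehmt2, the gene of the histone methyltransferase G9a, and every control sample also received an siRNA. The labels give neither the event from which the days were counted nor whether the cells were primary or a line. Each value is a logarithm set against the probe's own level, so heights cannot be compared between genes. The base is not stated and is taken as 2. The 26 genes lay between -1.12 and 1.27 of these units. Ehmt2 itself was below control in all 4 pairs of arrays, with a mean difference of -1.50 ± 0.12 (adjusted p = 1.1e-06 in the paired limma fit). Over both days it was not called in limma on the group means. With the replicate number as a block it was not called either (adjusted p = 0.164).

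The arrays also fell apart by replicate number, and this touches every result below. Array medians lay between 0.034 and 0.11 in the 4 arrays of replicate 2 and between -0.15 and -0.049 in the 4 arrays of replicate 1. At day 0, 10 myoblast and muscle markers had a median of -4.24 in siG9a and -4.64 in control cells of replicate 2, against -1.08 and -2.05 in replicate 1. At day 1 the same markers had medians of -0.25 and -0.31 in replicate 2, against 0.60 and 0.55 in replicate 1 (siG9a, then control). The muscle medians of replicate 2 were thus lower at both days, with a larger rise between the days. The 8 fibroblast markers went the other way, with day 1 medians of 1.11 in siG9a and 1.12 in control cells of replicate 2, against -0.45 in siG9a and -0.40 in control cells of replicate 1, and all 8 markers higher in replicate 2 with both siRNAs. At day 0 the median fibroblast difference, replicate 2 minus replicate 1, was 0.98 in siG9a (8 of 8 above 0) and 1.09 in control cells (7 of 8 above 0). The fibroblast and muscle medians each differed between the replicates in 1 direction at both days. For the 15 sterol enzymes below, the median of replicate 2 minus replicate 1 changed sign. It was -0.70 in siG9a and -0.91 in control cells at day 1, against 0.11 and 0.14 at day 0. Over all features the same medians were 0.19 and 0.16 at day 1, against 0.20 and 0.13 at day 0. The sterol medians of day 0 thus lay below or near those of all features, and their sign is not particular to these enzymes. The part of the marker differences in the results below was not tested. Relative values cannot show whether a marker was absent from a sample. In bulk RNA, fewer cells of a type and less RNA per cell cannot be told apart.

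The widest pattern among the 26 genes was a day course that ran in opposite directions in the 2 replicates. From day 0 to day 1, 12 of the 26 genes went down in replicate 2 and up in replicate 1, with both siRNAs, as did 4.29% of all features. None of the 26 showed the reverse pattern. The 12 genes were Mvk, Fdps, Sqle, Lss, Cyp51, Tm7sf2, Msmo1, Nsdhl, Hsd17b7, Ebp, Acly and Scd1, and 10 of them belong to the 15 measured enzymes of sterol synthesis. The median day change of the 15 sterol enzymes was -0.18 in siG9a and -0.25 in control cells of replicate 2, against 0.53 and 0.81 in replicate 1. The medians of all features were 0.086 and 0.026 in replicate 2, against 0.086 and -0.0074 in replicate 1. The difference between the 2 day courses was then tested in limma, in a model that gives each day its own replicate term and takes its error from the siRNA pairs. This model was chosen after the pattern had been seen. On simulated data it called more unchanged features than an adjusted p of 0.05 allows, so calls near the threshold are uncertain. It called 16 of the 26 genes lower, against 3.3% of all features called lower. Of the 26 differences 24 were below 0, against 48.8% over all features, and the median was -0.70, against 0.0053 over all features. There are 2 replicates, so the test shows that these 2 replicates differed by more than their siRNA pairs did, and gives no spread over further replicates.

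**Figure D1:**
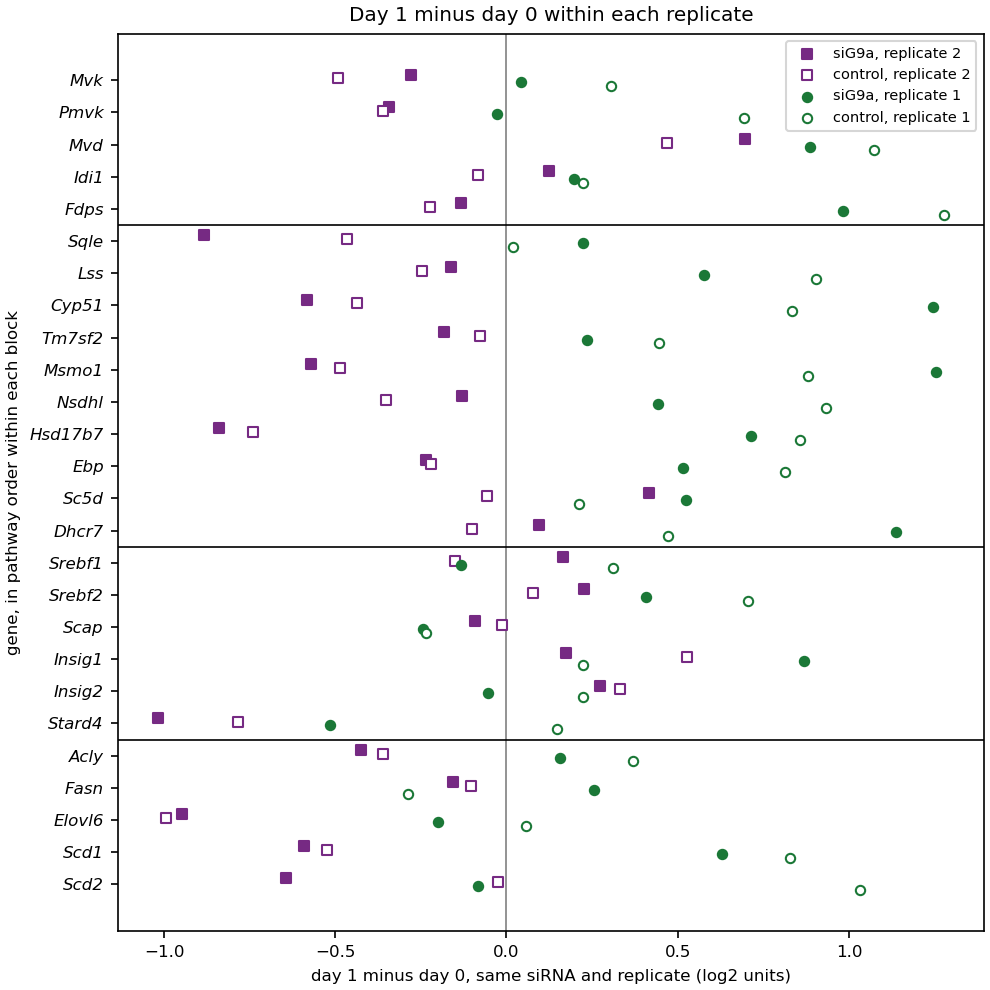
Day 1 minus day 0 within each replicate, in log2 units on the horizontal axis, for the 26 genes in pathway order from the mevalonate arm at the top to fatty acid synthesis at the bottom. Purple squares are replicate 2 and green circles replicate 1, filled for siG9a and open for control; for most sterol enzymes the squares lie below 0 and the circles above it, as for Cyp51 and Hsd17b7.

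In the mevalonate arm, Fdps, which makes farnesyl diphosphate, moved furthest between the replicates. In replicate 2, Fdps read -0.54 in siG9a and -0.20 in control cells at day 1, against -0.41 in siG9a and 0.025 in control cells at day 0. In replicate 1, Fdps read 0.53 in siG9a and 0.99 in control cells at day 1, against -0.45 in siG9a and -0.29 in control cells at day 0. It changed little in replicate 2 and was highest on the day 1 arrays of replicate 1. The day course of replicate 2 minus that of replicate 1 was -1.31 ± 0.16 (adjusted p = 1.5e-05). A second Fdps probe gave mean day changes of -0.029 in replicate 2 and 0.98 in replicate 1. Mvk, mevalonate kinase, changed by -0.28 in siG9a and -0.49 in control cells of replicate 2, against 0.042 in siG9a and 0.30 in control cells of replicate 1 (difference -0.56 ± 0.16, adjusted p = 0.0408). Pmvk, the next kinase, changed by -0.34 in siG9a and -0.36 in control cells of replicate 2, against -0.029 in siG9a and 0.69 in control cells of replicate 1, so in siG9a cells it was close to level in replicate 1 (difference -0.68 ± 0.17, adjusted p = 0.0189). Idi1, the isomerase of the activated isoprene unit, kept all 8 values between -0.32 and 0.23, and its difference of -0.19 ± 0.17 did not pass the test (adjusted p = 0.714). Mvd, the decarboxylase between these steps, was higher at day 1 in both replicates and is described further on.

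Most of the enzymes that turn squalene into cholesterol shared the pattern: 8 of the 10 measured were called lower in the day course of replicate 2. Sqle, squalene epoxidase, starts this stretch. In replicate 2, Sqle read -0.33 in siG9a and 0.034 in control cells at day 1, against 0.55 in siG9a and 0.50 in control cells at day 0. In replicate 1, Sqle read -0.47 in siG9a and -0.32 in control cells at day 1, against -0.69 in siG9a and -0.34 in control cells at day 0. Its contrast lay mainly at day 0, where replicate 2 was high and replicate 1 low, and the difference in day course was -0.80 ± 0.17 (adjusted p = 0.00476). Of the 2 other Sqle probes, 1 moved the same way in both replicates (-0.77 in replicate 2 and 0.34 in replicate 1) and 1 did so in replicate 1 only (0.025 in replicate 2 and 0.19 in replicate 1). In replicate 2, Lss, the lanosterol synthase, read -0.30 in siG9a and -0.12 in control cells at day 1, against -0.14 in siG9a and 0.12 in control cells at day 0. In replicate 1, Lss read 0.40 in siG9a and 1.27 in control cells at day 1, against -0.18 in siG9a and 0.37 in control cells at day 0. The control array of day 1 in replicate 1 held the largest value among the 26 genes, and the difference was -0.95 ± 0.19 (adjusted p = 0.00379). A second Lss probe went slightly up in both (0.14 in replicate 2 and 0.025 in replicate 1).

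In Cyp51 and Hsd17b7 the replicates changed places between the days. Cyp51 encodes the demethylase that takes the first methyl group off lanosterol. In replicate 2, Cyp51 read -0.60 in siG9a and -0.076 in control cells at day 1, against -0.016 in siG9a and 0.36 in control cells at day 0. In replicate 1, Cyp51 read 0.13 in siG9a and 0.51 in control cells at day 1, against -1.12 in siG9a and -0.33 in control cells at day 0. It was higher in replicate 2 at day 0 and higher in replicate 1 at day 1, with both siRNAs, and the difference in day course was -1.55 ± 0.16 (adjusted p = 3.5e-06). Hsd17b7, the ketosteroid reductase that completes removal of the methyl groups, did likewise. In replicate 2, Hsd17b7 read -0.69 in siG9a and -0.46 in control cells at day 1, against 0.15 in siG9a and 0.28 in control cells at day 0. In replicate 1, Hsd17b7 read 0.23 in siG9a and 0.71 in control cells at day 1, against -0.49 in siG9a and -0.15 in control cells at day 0. Day 1 and day 0 did not overlap within either replicate, and the difference was -1.58 ± 0.16 (adjusted p = 1.5e-06). A second Hsd17b7 probe barely moved (-0.064 in replicate 2 and -0.048 in replicate 1).

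Msmo1, the methylsterol oxidase that opens the same demethylation, had the largest difference of the 26 genes. In replicate 2, Msmo1 read -0.66 in siG9a and -0.58 in control cells at day 1, against -0.092 in siG9a and -0.094 in control cells at day 0. In replicate 1, Msmo1 read 0.86 in siG9a and 1.04 in control cells at day 1, against -0.39 in siG9a and 0.16 in control cells at day 0. The replicates were near each other at day 0 and far apart at day 1, and the difference was -1.60 ± 0.17 (adjusted p = 4.7e-06). Nsdhl, the sterol dehydrogenase that acts between Msmo1 and Hsd17b7, changed by -0.13 in siG9a and -0.35 in control cells of replicate 2, against 0.44 in siG9a and 0.93 in control cells of replicate 1 (difference -0.93 ± 0.17, adjusted p = 0.00181). Its 3 other probes had the same signs, at -0.073 to -0.0045 in replicate 2 and 0.32 to 0.71 in replicate 1. Ebp, the sterol isomerase, changed by -0.23 in siG9a and -0.22 in control cells of replicate 2, against 0.52 in siG9a and 0.81 in control cells of replicate 1 (difference -0.89 ± 0.16, adjusted p = 0.00103), and was lower in replicate 2 at both days. Dhcr7, the reductase of the last step, changed by 0.096 in siG9a and -0.10 in control cells of replicate 2, against 1.14 in siG9a and 0.47 in control cells of replicate 1 (difference -0.81 ± 0.16, adjusted p = 0.00383). Tm7sf2, a sterol reductase, had the same signs at smaller size (-0.47 ± 0.15, adjusted p = 0.0767), and Sc5d, the sterol desaturase, gave -0.19 ± 0.16 (adjusted p = 0.674). Neither passed the test.

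Of the 6 regulators and carriers, 1 was called. Srebf2, the factor most tied to cholesterol genes, gave a difference of -0.40 ± 0.16 (adjusted p = 0.202), and Srebf1, most tied to fatty acid genes, gave -0.081 ± 0.18 (adjusted p = 0.911). Scap (0.19 ± 0.15), Insig1 (-0.20 ± 0.20) and Insig2 (0.22 ± 0.16) also missed the threshold. The arrays measured transcripts only, not the cutting of the proteins. Stard4, a carrier that moves sterol between membranes, was the 1 called, with day changes of -1.02 in siG9a and -0.79 in control cells of replicate 2, against -0.51 in siG9a and 0.15 in control cells of replicate 1 (difference -0.72 ± 0.16, adjusted p = 0.00681).

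In fatty acid synthesis 4 of 5 genes were called. In replicate 2, Scd1, which puts the first double bond into fatty acids, read -0.33 in siG9a and -0.19 in control cells at day 1, against 0.26 in siG9a and 0.33 in control cells at day 0. In replicate 1, Scd1 read 0.21 in siG9a and 0.19 in control cells at day 1, against -0.42 in siG9a and -0.64 in control cells at day 0. Its values crossed over as those of Cyp51 did (difference -1.29 ± 0.16, adjusted p = 2.1e-05). Acly, which cuts citrate to acetyl-CoA, changed by -0.43 in siG9a and -0.36 in control cells of replicate 2, against 0.16 in siG9a and 0.37 in control cells of replicate 1 (difference -0.66 ± 0.15, adjusted p = 0.00963). The related desaturase Scd2 changed by -0.64 in siG9a and -0.025 in control cells of replicate 2, against -0.082 in siG9a and 1.03 in control cells of replicate 1 (difference -0.81 ± 0.16, adjusted p = 0.00341). Elovl6, which lengthens palmitate, was lower at day 1 in replicate 2 by more than the other 4 genes (-0.95 in siG9a and -0.996 in control cells) and was near level in replicate 1 (-0.20 in siG9a and 0.056 in control cells), a difference of -0.90 ± 0.15 (adjusted p = 8.4e-04). A second Elovl6 probe moved little (0.026 in replicate 2 and 0.085 in replicate 1). Fasn, the fatty acid synthase itself, stayed between -0.29 and 0.31 on all arrays and its difference of -0.12 ± 0.18 missed the threshold (adjusted p = 0.865).

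Other lists moved with the same split. In the same test the muscle markers had 6 of 10 genes called higher (median 1.28), where 2.3% of all features were called higher. The proliferation genes had 5 of 7 called lower (median -0.77), where 3.3% of all features were called lower. Both lists thus had larger day changes in replicate 2 than in replicate 1. The median of this difference over all features was 0.0053. The median day change of the 7 proliferation genes was -2.36 in siG9a and -1.95 in control cells of replicate 2, against -1.42 in siG9a and -1.39 in control cells of replicate 1. Fibroblast markers had 2 of 8 called higher (median 0.32). No adipocyte (9 genes, median 0.059), macrophage and leukocyte (7, median 0.12) or endothelial marker (6, median -0.055) was called. The part of these differences in the sterol pattern was not tested. Outside the 26 genes, of 13 genes of sterol uptake, storage and export 5 were called higher, against the same 2.3% of all features, and none lower (median 0.20). Of 7 further sterol pathway genes none was called (median -0.22). Of 14 genes that activate, lengthen or desaturate fatty acids 2 were called lower (median -0.17), against 3.3% of all features. Of 15 genes of fatty acid uptake and oxidation 2 were called lower (median -0.17), against the same 3.3%.

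**Figure D2:**
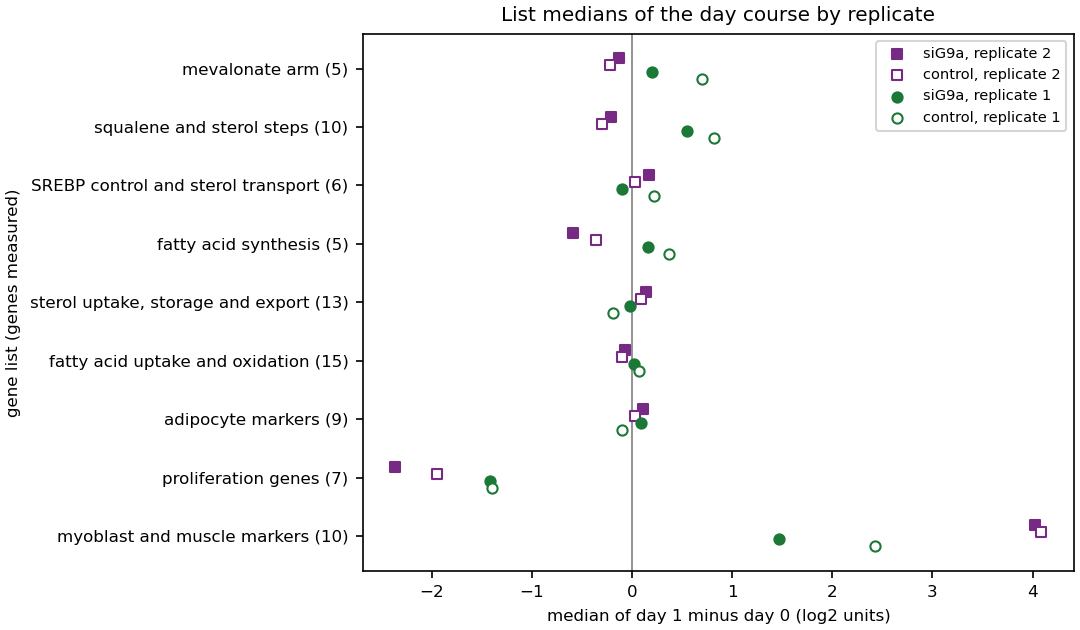
Median of day 1 minus day 0 over the genes of each list, in log2 units, with the number of measured genes in brackets; purple squares are replicate 2 and green circles replicate 1, filled for siG9a and open for control. The 4 lists drawn first are the groups of the 26 genes. The mevalonate, sterol and fatty acid synthesis medians lie below 0 in replicate 2 and above 0 in replicate 1, while muscle and proliferation lists keep 1 sign in both.

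RefSeq promoter windows on GRCm38.p6, from 250 bases before to 50 bases after the start, were given for 23 of the 29 genes. They were searched on both strands for 4 short motifs, each on its own, so that matches may overlap. A gene was counted where any of its windows held the motif. CCAAT, the letters read by the factor NF-Y, lay in 20 of the 23 genes, against 41.1% of 27025 genes with a window. GGGCGG, the GC box, lay in 20 of the 23, against 38.2%. CACGTG, the E-box, lay in 5 of the 23, against 8.09%. TCACNCCAC, a form of the sterol regulatory element, was found in 1 of the 23 (Hmgcs1), against 1.44%. A match is a run of letters and not a measured site. The windows of 4 genes are shown because 3 of them went down from day 0 to day 1 in replicate 2 and up in replicate 1, while Mvd went up in both. Each is written 5′ to 3′ on the strand of the gene, with CCAAT, or ATTGG where it lies on the other strand, in capitals. The Cyp51 window is chr5:4104648-4104947 (minus strand), Lss is chr10:76531355-76531654 (plus strand), Hsd17b7 is chr1:169969156-169969455 (minus strand) and Mvd is chr8:122443373-122443672 (minus strand).
Cyp51: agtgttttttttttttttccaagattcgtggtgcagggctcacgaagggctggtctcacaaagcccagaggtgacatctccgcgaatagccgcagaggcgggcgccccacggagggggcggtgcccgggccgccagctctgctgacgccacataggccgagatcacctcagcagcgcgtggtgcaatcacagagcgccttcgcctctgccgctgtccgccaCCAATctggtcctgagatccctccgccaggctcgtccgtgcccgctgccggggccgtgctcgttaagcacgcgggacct
Lss: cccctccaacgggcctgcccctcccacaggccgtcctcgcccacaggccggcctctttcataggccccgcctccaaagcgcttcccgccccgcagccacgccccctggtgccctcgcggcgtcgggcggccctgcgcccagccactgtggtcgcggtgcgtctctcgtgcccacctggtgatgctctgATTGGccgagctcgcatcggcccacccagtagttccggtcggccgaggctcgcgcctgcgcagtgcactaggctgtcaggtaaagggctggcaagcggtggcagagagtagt
Hsd17b7: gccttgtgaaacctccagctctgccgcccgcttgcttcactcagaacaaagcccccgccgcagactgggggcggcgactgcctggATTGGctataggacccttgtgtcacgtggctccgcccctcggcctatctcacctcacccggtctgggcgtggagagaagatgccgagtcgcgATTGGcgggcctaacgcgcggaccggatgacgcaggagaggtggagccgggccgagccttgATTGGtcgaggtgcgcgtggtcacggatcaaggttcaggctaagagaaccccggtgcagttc
Mvd: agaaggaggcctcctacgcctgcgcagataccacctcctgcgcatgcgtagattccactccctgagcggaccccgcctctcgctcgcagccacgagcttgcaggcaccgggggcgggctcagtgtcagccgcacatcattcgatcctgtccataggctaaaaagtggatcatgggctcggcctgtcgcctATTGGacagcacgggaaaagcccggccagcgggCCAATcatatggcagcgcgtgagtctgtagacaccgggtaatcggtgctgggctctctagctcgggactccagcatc
Cyp51 held its CCAAT 29 bases before the start and Lss held 1 match, 62 bases before it, on the other strand. Hsd17b7 held 3 matches and Mvd 2, so the gene that went up in both replicates held the motif as well.

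The comparison of day 1 with day 0 by group asked which of these transcripts changed between the days when both replicates are averaged. In limma on the 4 group means, 0 of the 26 genes were called in siG9a cells (285 features, 0.906% of all, were called) and 0 in control cells (353 features, 1.12%). At an unadjusted p under 0.05 there were 2458 features in siG9a and 2421 in control cells. The median change of the 26 genes was 0.079 in siG9a cells (17 above 0) and 0.18 in control cells (20 above 0), against 0.090 and 0.0093 over all features. These medians average over the opposite replicates described above. Of all features, 30.0% were below 0 in siG9a cells and 47.5% in control cells. In siG9a cells the 26 genes thus rose no more often than all features did. With the replicate number as a block 3 genes were called in siG9a cells (2 higher and 1 lower, where 8.98% of all features were called in either direction) and 1 was called higher in control cells (3.85% of all features were called higher).

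Mvd, the decarboxylase that makes isopentenyl diphosphate, was the gene called in both. In replicate 2, Mvd read -0.13 in siG9a and -0.16 in control cells at day 1, against -0.83 in siG9a and -0.63 in control cells at day 0. In replicate 1, Mvd read 0.70 in siG9a and 1.21 in control cells at day 1, against -0.18 in siG9a and 0.13 in control cells at day 0. Each replicate was higher at day 1 with both siRNAs, but replicate 1 at day 0 overlapped replicate 2 at day 1. The blocked change was 0.79 ± 0.16 in siG9a cells (adjusted p = 0.0159) and 0.77 ± 0.16 in control cells (adjusted p = 0.0172). Without the block the adjusted p was 0.949 and 1. Sc5d, the desaturase of a late step, read 0.14 and 0.14 in siG9a and 0.18 and -0.10 in control cells at day 1, against -0.39 and -0.28 in siG9a and -0.031 and -0.047 in control cells at day 0 (replicate 1, then 2). In siG9a cells both day 1 values lay above both day 0 values, a blocked change of 0.47 ± 0.12 (adjusted p = 0.0396, against 0.415 unblocked). Stard4 read -0.51 and -0.47 in siG9a and 0.14 and -0.060 in control cells at day 1, against 0.0055 and 0.54 in siG9a and -0.0055 and 0.72 in control cells at day 0. It was lower at day 1 in both siG9a replicates, and its blocked change was -0.77 ± 0.20 (adjusted p = 0.0491, against 0.404 without it).

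Mvd, Srebf2 and Insig1 were above day 0 in all 4 pairs of arrays (20.8% of all features were), and Scap was below it in all 4 (12.3% of all features were), so neither count, 3 and 1 of 26, stood above its background. Insig1, the sterol-responsive brake on Scap, read -0.23 and 0.18 in siG9a and -0.22 and 0.40 in control cells at day 1, against -1.10 and 0.012 in siG9a and -0.44 and -0.13 in control cells at day 0 (replicate 1, then 2). Its siG9a array of day 0 in replicate 1 was far below the other 7. The blocked changes of 0.52 ± 0.17 in siG9a and 0.38 ± 0.17 in control cells missed the threshold (adjusted p = 0.114 and 0.303), while its mean change over both siRNAs was called in the model with a replicate term for each day (0.45 ± 0.10, adjusted p = 0.00167). Srebf2 changed by 0.23 in siG9a and 0.079 in control cells of replicate 2, against 0.41 in siG9a and 0.70 in control cells of replicate 1, and its second probe was above 0 in both as well (0.64 in replicate 2 and 0.48 in replicate 1). That model called Srebf2 higher as well (0.35 ± 0.08, adjusted p = 0.00226). Insig2 gave 0.27 in siG9a and 0.33 in control cells of replicate 2, against -0.054 in siG9a and 0.22 in control cells of replicate 1, and Srebf1 gave 0.17 in siG9a and -0.15 in control cells of replicate 2, against -0.13 in siG9a and 0.31 in control cells of replicate 1. Neither was called.

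Over both siRNAs and both replicates, the model with a replicate term for each day called 10 of the 26 genes higher at day 1, against 10.7% of all features called higher, and 3 lower, against 11.6% of all features called lower. The 10 were Mvd (0.78 ± 0.09), Fdps (0.48 ± 0.08), Lss, Cyp51, Msmo1, Ebp, Sc5d, Dhcr7 (0.40 ± 0.08), Srebf2 and Insig1, and the 3 were Sqle (-0.28 ± 0.08), Stard4 (-0.54 ± 0.08) and Elovl6 (-0.52 ± 0.08). The error in this model comes from the siRNA pairs, and most of it is pooled over all features. It leaves out how far the day courses of the 2 replicates differ. Of the 10 genes, Fdps, Lss, Cyp51, Msmo1, Ebp and Dhcr7 were also called for that difference, as were all 3 called lower, so their mean changes average over unlike replicates. With median centring 6 were called higher. Without single arrays the Lss change ranged from 0.095 to 0.44.

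Among pathway neighbours the blocked fit called Erlin1, a membrane protein of the endoplasmic reticulum, lower at day 1 in siG9a cells (-0.44 ± 0.11, adjusted p = 0.0438) and the related Erlin2 higher at day 1 in control cells (0.87 ± 0.16, adjusted p = 0.00817). Each was the 1 call of the 7 further sterol pathway genes in that group, and neither was called without the block. Of all features, the blocked fit called 8.98% in siG9a and 8.83% in control cells. A call of 1 among 7 genes is therefore no result about that list. Of the 14 further genes of fatty acid activation, elongation and desaturation, 2 were called in siG9a cells, among them Elovl5, an elongase of longer chains (-0.45 ± 0.10, adjusted p = 0.0222), and 2 in control cells, where 8.83% of all features were called in either direction, among them Tecr, the last reductase of elongation (0.54 ± 0.14, adjusted p = 0.0455).

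**Figure D3:**
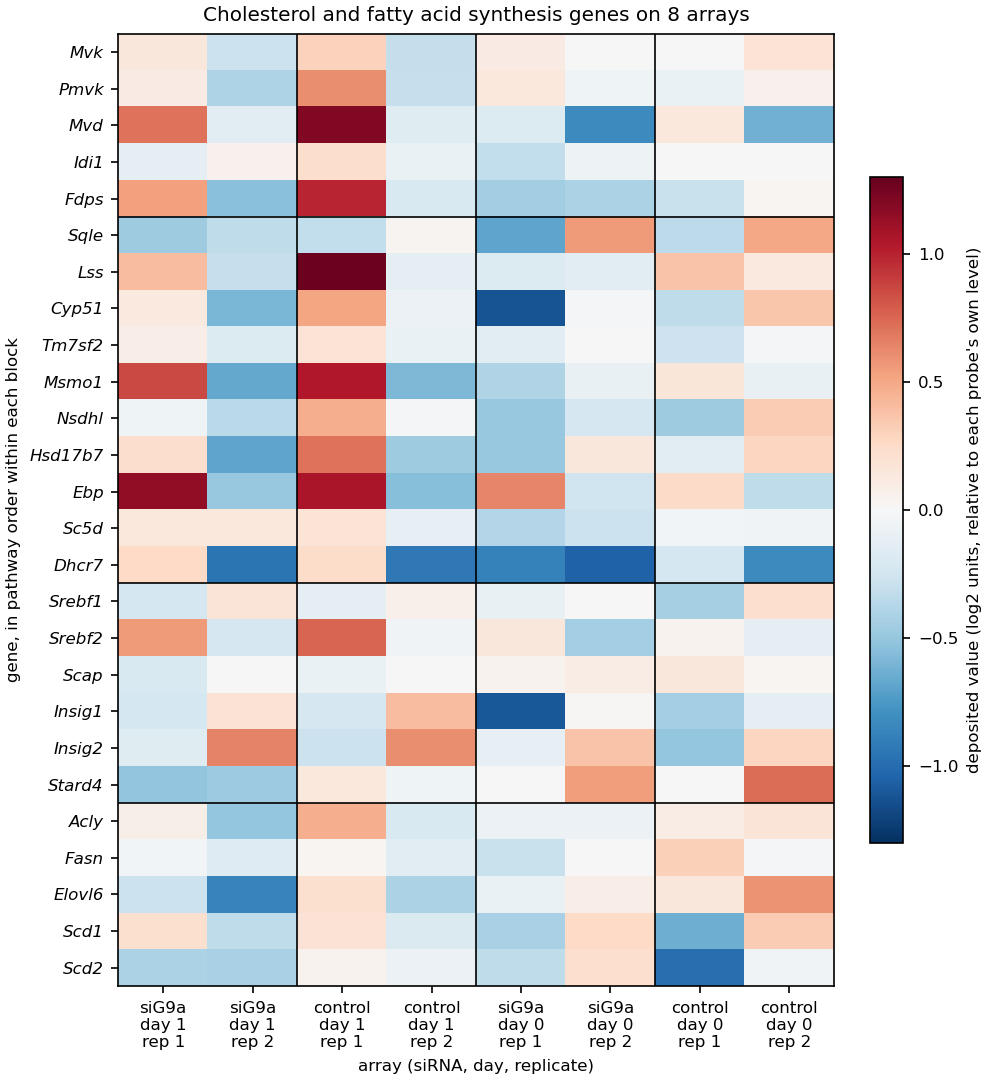
Deposited value of each of the 26 genes (rows, in pathway order within the mevalonate, sterol, regulator and fatty acid blocks) on each of the 8 arrays (columns, by day, siRNA and replicate), in log2 units relative to each probe's own level; red is higher and blue lower. The day 1 arrays of replicate 1 are red through most sterol enzymes and those of replicate 2 are mostly blue, with the deepest red at Lss in control day 1 replicate 1.

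The comparison of siG9a with scrambled control asked whether lowering G9a changed these transcripts. On the 4 group means, limma called 0 of the 26 genes at day 1, at day 0, over both days and in the difference between the days, where 0% of all features were called (54, 123, 148 and 18 features had an unadjusted p under 0.05). With the replicate block there were also no calls, with 1195, 1728, 1540 and 1382 features at an unadjusted p under 0.05. Neither fit called Ehmt2, the siRNA target, in any of these comparisons. The lack of calls therefore does not show that the 26 genes were unchanged. The median difference of the 26 genes was -0.16 at day 1 (23 below 0) and -0.20 at day 0 (19 below 0), against 0.024 and -0.036 over all features. Over both days it was -0.18, with 21 genes below 0, against -0.0041 over all features. Of all features, 42.3% were below 0 at day 1, 60.9% at day 0 and 51.8% over both days. Without control replicate 1 of day 1 the day 1 median of the 26 genes was 0.050. The medians of the 4 pairs were -0.19 and -0.12 at day 1 and -0.17 and -0.15 at day 0 (replicate 1, then 2). Since arrays of the same day and replicate number deviated together, siG9a was also set against its own control in each of the 4 pairs. The 4 pairs come from 2 replicates, each at 2 days, and the fit takes them as independent. Its p-values therefore give no spread over further replicates. In this limma fit 4 of the 26 genes were called lower and none higher, against 0.433% of all features called lower. They were Cyp51, Elovl6, Lss and Fdps. On simulated data this fit too called more unchanged features than an adjusted p of 0.05 allows, so calls near the threshold are uncertain. siG9a lay below control in all 4 pairs in 7 of the 26 genes (Fdps, Lss, Cyp51, Nsdhl, Hsd17b7, Acly and Elovl6), where 8.37% of all features did.

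**Figure D4:**
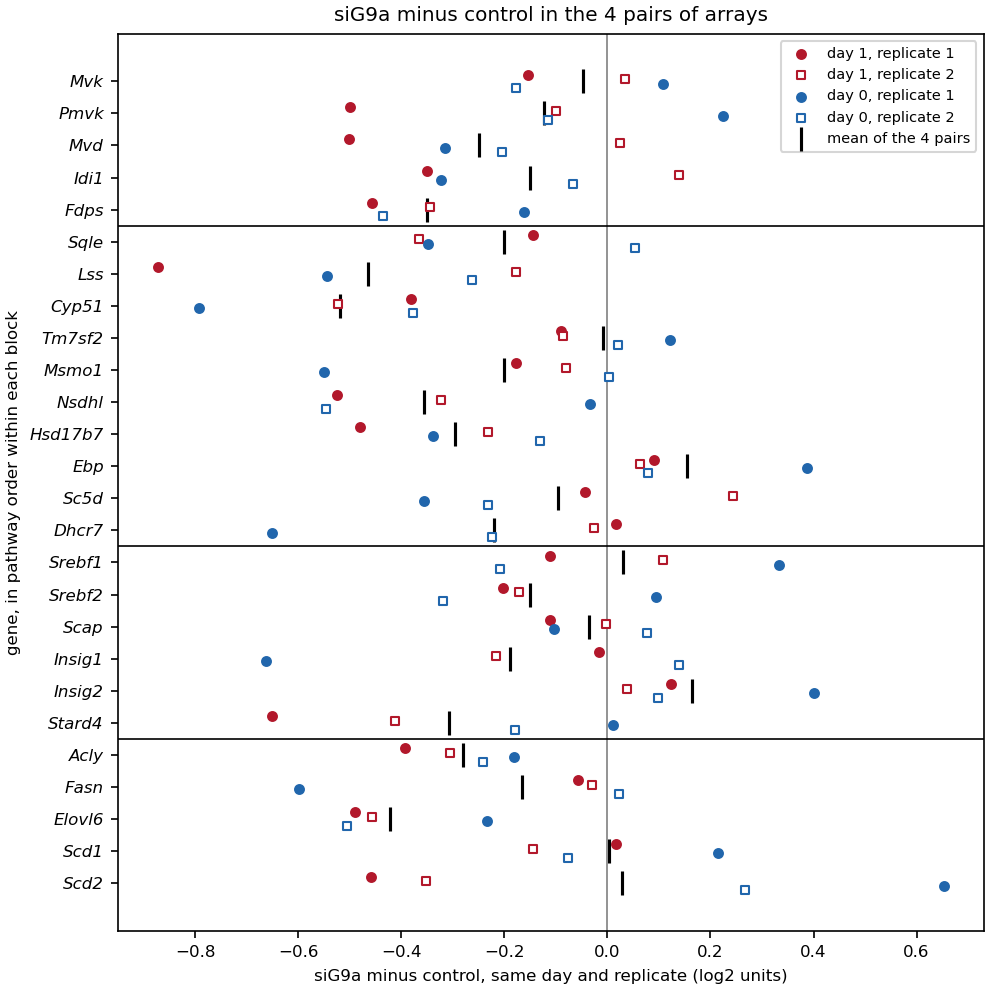
siG9a minus control for the arrays of the same day and replicate, in log2 units, for the 26 genes in pathway order; red is day 1 and blue day 0, filled circles are replicate 1 and open squares replicate 2, and the black bar is the mean of the 4 pairs. All 4 points of Cyp51, Lss, Fdps and Elovl6 lie below 0, and those of Ebp and Insig2 lie above it.

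Cyp51, whose 8 values are given above, had siG9a minus control differences of -0.38 and -0.52 at day 1 and -0.79 and -0.38 at day 0 (replicate 1, then 2). All 4 were of like sign, and the mean was -0.52 ± 0.08 (adjusted p = 0.00369). Cyp51 kept its call in every setting of the paired fit that was run, and it was the 1 gene of the 26 called lower at day 0 in the model with a replicate term for each day (-0.58 ± 0.12, adjusted p = 0.0163, against 0.274% of all features called lower). No other probe was named for it. Elovl6 read -0.28 and -0.86 in siG9a and 0.21 and -0.41 in control cells at day 1, against -0.083 and 0.083 in siG9a and 0.15 and 0.59 in control cells at day 0. The siG9a value was below its control in each pair (-0.49 and -0.46 at day 1 and -0.23 and -0.51 at day 0), with a mean of -0.42 ± 0.08 (adjusted p = 0.0121). Its second probe, however, gave 0.022, and with the mean of both probes Elovl6 was not called (-0.20, adjusted p = 0.376). Lss differed by -0.87 and -0.18 at day 1 and -0.55 and -0.26 at day 0, a mean of -0.46 ± 0.10 (adjusted p = 0.0237). Its second probe gave -0.057, and the mean of its probes was not called (-0.26, adjusted p = 0.258). Fdps differed by -0.46 and -0.34 at day 1 and -0.16 and -0.44 at day 0, a mean of -0.35 ± 0.08 (adjusted p = 0.0425), and its second probe gave -0.24. The mean of its probes was not called either (-0.30, adjusted p = 0.112). Median centring of the arrays left 2 calls, Cyp51 and Elovl6, against 0.296% of all features called lower. Leaving out the day 1 pair of replicate 1 left Cyp51 alone. Leaving out either pair of replicate 2 left Cyp51 and Lss, and leaving out the day 0 pair of replicate 1 gave 6 calls.

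The remaining genes did not pass the paired test. Nsdhl read -0.054 and -0.35 in siG9a and 0.47 and -0.022 in control cells at day 1, against -0.50 and -0.22 in siG9a and -0.46 and 0.33 in control cells at day 0. Its mean difference was -0.36 ± 0.09 (adjusted p = 0.0712), and its 3 other probes gave -0.30 to -0.16. In the model with a replicate term for each day Nsdhl was called (adjusted p = 0.0476), the fifth call there over both days beside Cyp51, Elovl6, Lss and Fdps, where 0.614% of all features were called lower. Acly read 0.076 and -0.50 in siG9a and 0.47 and -0.20 in control cells at day 1, against -0.079 and -0.076 in siG9a and 0.10 and 0.16 in control cells at day 0, with siG9a below control in each pair. Its mean was -0.28 ± 0.08 (adjusted p = 0.128). For Hsd17b7 the mean was -0.30 ± 0.08 (adjusted p = 0.121), and for Stard4 -0.31 ± 0.09 (adjusted p = 0.193). Mvd (-0.25), Dhcr7 (-0.22), Msmo1 (-0.20) and Sqle (-0.20) were below control in 3 of 4 pairs. Ebp (mean 0.16 ± 0.08) and Insig2 (mean 0.16 ± 0.08) were above control in all 4 pairs. The transcription factors themselves differed by -0.15 ± 0.08 for Srebf2 and 0.030 ± 0.09 for Srebf1. By group, the paired medians were -0.15 in the mevalonate arm (5 of 5 genes below 0, 1 called), -0.21 in the squalene and sterol steps (9 of 10 below 0, 2 called), -0.092 in the regulators and Stard4 (4 of 6 below 0, none called) and -0.17 in fatty acid synthesis (3 of 5 below 0, 1 called).

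Read day by day on the group means, the genes with the smallest p missed the threshold in limma, each with an adjusted p of 1. At day 1 these were Stard4 (-0.53 ± 0.27), Elovl6 (-0.47 ± 0.28), Nsdhl (-0.42 ± 0.29), Acly (-0.35 ± 0.26), Scd2 (-0.41 ± 0.30) and Lss (-0.52 ± 0.41), all below 0. Without control replicate 1 of day 1 the Lss value was 0.17 and that of Acly -0.016. At day 0 they were Sc5d (-0.29 ± 0.17), Scd2 (0.46 ± 0.30), Fasn (-0.29 ± 0.19), Cyp51 (-0.58 ± 0.41), Elovl6 (-0.37 ± 0.28) and Idi1 (-0.19 ± 0.18), of which Scd2 was above 0. The Cyp51 value was -0.034 without siG9a replicate 1 of day 0, and that of Scd2 was -0.0067 without control replicate 1. Scd2 read -0.41 and -0.42 in siG9a and 0.048 and -0.073 in control cells at day 1, against -0.33 and 0.22 in siG9a and -0.98 and -0.048 in control cells at day 0. At day 1 both siG9a values lay below both controls, and at day 0 the groups overlapped. Fasn read -0.035 and -0.16 in siG9a and 0.021 and -0.13 in control cells at day 1, against -0.29 and -0.0059 in siG9a and 0.31 and -0.028 in control cells at day 0. Its day 0 mean was set by the replicate 1 pair, since replicate 2 differed by 0.022. Idi1 read -0.12 and 0.052 in siG9a and 0.23 and -0.088 in control cells at day 1, against -0.32 and -0.071 in siG9a and 0.0040 and -0.0040 in control cells at day 0. Both siG9a values of day 0 lay below both controls.

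The difference between the siG9a effects of day 1 and day 0 was furthest from 0, by p, in Scd2 (-0.87 ± 0.43), Sc5d (0.39 ± 0.24), Stard4 (-0.45 ± 0.38), Fasn (0.25 ± 0.27), Pmvk (-0.35 ± 0.42) and Dhcr7 (0.43 ± 0.65), again with an adjusted p of 1. Pmvk read 0.11 and -0.40 in siG9a and 0.61 and -0.30 in control cells at day 1, against 0.14 and -0.058 in siG9a and -0.086 and 0.058 in control cells at day 0. Its siG9a and control values overlapped at both days. Dhcr7 read 0.26 and -0.95 in siG9a and 0.24 and -0.93 in control cells at day 1, against -0.88 and -1.05 in siG9a and -0.23 and -0.83 in control cells at day 0. At day 0 both siG9a values lay below both controls, and at day 1 the pairs were nearly equal.

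Beside these differences, the median siG9a difference of the proliferation genes was below 0 (-0.23, 7 of 7 below 0), with Mcm5, a subunit of the replication helicase, called lower at -0.43 ± 0.08 (adjusted p = 0.0126), and that of the muscle markers was above 0 (0.33, 8 of 10 above 0), with Tnnt3, fast troponin T, called higher at 0.61 ± 0.11 (adjusted p = 0.00981). In the paired fit 136 of 31443 features were called lower and 120 higher, and 51.8% of all features lay below 0. The part of the proliferation and muscle shifts in the lower sterol transcripts was not tested. Adipocyte (median -0.032), fibroblast (0.0052), macrophage and leukocyte (0.020) and endothelial markers (-0.021) had no calls. Of the 14 further genes of fatty acid activation, elongation and desaturation, 2 were called lower in the paired fit, against 0.433% of all features. Hsd17b12, a reductase of the elongation cycle, differed by -0.39 ± 0.08 (adjusted p = 0.0181). Fads2, a desaturase of polyunsaturated fatty acids, differed by -0.37 ± 0.08 (adjusted p = 0.0248). None was called among 7 further sterol pathway genes (median -0.047, 6 below 0), 13 genes of sterol uptake, storage and export (median 0.039, 6 below 0) or 15 genes of fatty acid uptake and oxidation (median 0.085, 5 below 0).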

How the data were processed

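The table used was the authors' deposited processed one, with log2 values (base assumed) set against the level of each of 45281 probes. For the authors' software, background correction and normalization, nothing is given in the sources used here. A deposited unnormalized table has 16 columns whose names match no sample, and it was not used; detection and depth over background are therefore unknown, and the number of arrays limits the precision. Symbols were updated through Entrez IDs for 28620 probes and accessions for 2637, 4527 kept the platform symbol and 9497 had none.

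The 4 groups of 2 arrays were compared in limma 3.58.1 (R 4.3.3) as group means with empirical Bayes moderation, and calls were made at an adjusted p under 0.05 (Benjamini-Hochberg, 31443 features). Errors are moderated standard errors, which join the spread of each feature with a prior spread taken over all features. The paired fit had 3 residual and 16.86 prior degrees of freedom. The model with a replicate term for each day had 2 and 17.35. The errors of both thus rest mostly on the spread shared by all features. With 2 arrays against 2, an exact test cannot go below 0.333, so none was run. Replicate numbers, taken from the titles, pair the samples: the deviations of same-numbered arrays correlated with r from 0.613 to 0.865 over the 6 pairs of groups, and blocked and paired fits are given where they change a call. Nothing says whether duplicates came from separate animals, so p-values measure the spread between these samples. A model with a replicate term for each day was added after the data were seen. The fits were tested on simulated data, where the paired and added fits called more unchanged features than their adjusted p allows, as said beside their calls. Alternatives were the block, median centring, the mean of all probes of a gene, robust moderation and leaving out arrays or pairs.

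The genes, the 10 other gene lists and the tests were chosen with earlier results of these data known. All members are named. Full values go to members called in the main or blocked fit, or with the 6 smallest p of a comparison, and up to 3 genes per other list are named by smallest p. Further members are described because the paired and added fits called them, a choice made after their values were seen.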

Additional observations from a re-analysis of the deposited data

Results flagged for a closer look

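For 2 genes every siG9a minus control difference had 1 sign at day 1 and the opposite sign at day 0. The share of all features with this pattern is not given here, so the count is no result about the list. Scd2, a fatty acid desaturase, was below control at day 1 (-0.46 and -0.35) and above it at day 0 (0.65 and 0.27). The difference between the days was -0.866 with a standard error of 0.429 and did not pass the test in limma (adjusted p = 1, and 0.148 with a replicate term for each day). Tm7sf2, a sterol reductase, differed by -0.089 and -0.086 at day 1 and by 0.12 and 0.021 at day 0. Its difference was -0.159 with a standard error of 0.268 (adjusted p = 1, and 0.782 with the replicate terms).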

How the results depend on the processing

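With the replicate block, 1 gene was called for day 1 against day 0 in control cells and 3 in siG9a cells, as reported, and the block changed no other call. For siG9a against control over both days, the pairs gave 4 calls, 2 with median centring, 4 with robust moderation, 1 with the mean of all probes of a gene, and between 1 and 6 when 1 pair was left out; the model with a replicate term for each day gave 5 over both days and 1 at day 0. The replicate difference in day course had 16 calls with centring, 16 with robust moderation and 14 with the mean of all probes, and between 11 and 17 without single arrays; the 11 came without the day 1 control array of either replicate. In the same model the mean day change had 6 genes called higher with centring, between 6 and 9 without single arrays, and 2 or 3 called lower.

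On the group means, the median of the 26 genes at day 0 was -0.16 with centring and -0.18 with the mean of all probes. Leaving out single arrays moved the median from -0.59 to 0.050 at day 1, from -0.32 to -0.078 at day 0, from -0.30 to -0.039 over both days and from -0.36 to 0.23 for the difference between the days. The day 1 median was above 0 without control replicate 1 of day 1. Signs turned without 1 array for Lss at day 1 (-1.22 to 0.17), Scd2 at day 0 (-0.0067 to 0.93) and, for the difference between the days, Pmvk (-0.81 to 0.10) and Dhcr7 (-0.17 to 1.04, below 0 also at -0.15). The causes were not tested. No member was called on the group means in any of these settings. A detection filter was not run, because the detection columns carry no sample names; dim probes may be among those used.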

Other observations

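Of 15 genes of fatty acid uptake and oxidation, the blocked limma fit called 3 in siG9a cells at day 1 (1 higher and 2 lower), where 8.98% of all features were called, and 2 in control cells (1 higher and 1 lower), where 8.83% were. None of the genes named here was called without the block. Fabp3, the fatty acid binding protein of muscle, rose at day 1 by 1.76 ± 0.18 (adjusted p = 4.8e-04) in siG9a cells and by 2.18 ± 0.18 (adjusted p = 1.6e-04) in control cells, while Pdk4, the kinase that restrains pyruvate oxidation, fell (-1.20 ± 0.15, adjusted p = 0.00117 in siG9a, and -1.46 ± 0.15, adjusted p = 3.8e-04 in control cells). Pparg, the adipogenic nuclear receptor, was lower at day 1 as well (-0.61 ± 0.14, adjusted p = 0.0284 in siG9a, and -0.79 ± 0.14, adjusted p = 0.00771 in control cells), and so was Me1, the malic enzyme that supplies NADPH to fatty acid synthesis (-0.63 ± 0.12, adjusted p = 0.0103 in siG9a, and -0.58 ± 0.12, adjusted p = 0.0138 in control cells). The 9 adipocyte markers did not fall together with Pparg. In siG9a cells 7 of the 9 were higher at day 1 in replicate 1 and 6 in replicate 2, against 1 and 5 in control cells. Npc2, which carries cholesterol out of lysosomes, was lower too (-0.70 ± 0.18, adjusted p = 0.041 in siG9a, and -0.80 ± 0.18, adjusted p = 0.0222 in control cells). The sterol enzymes and these genes were measured on the same arrays, and no relation between them was tested.

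Members with several probes did not always agree between probes. The 16 other probes, of 10 genes, had the sign of the probe used in 13 cases for the mean siG9a difference, in 13 for the day change of replicate 2 and in 12 for that of replicate 1.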
